A study of Mus musculus with 76 samples.

Results

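Costimulatory and checkpoint genes encode the surface proteins through which a T cell and its partner cell tune the response to antigen, and 10 of them were followed here, of the 55487 gene IDs in each deposited table. They were chosen by symbol. Of the 10, 6 encode receptors of T cells (Cd28, Icos, Pdcd1, Lag3, Tigit and Havcr2) and 4 encode ligands carried by the partner cell (Cd80, Cd86, Cd274 and Pdcd1lg2). All 10 symbols matched 1 gene ID each.

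CD28 is the main costimulatory receptor of T cells and binds CD80 and CD86, and ICOS is a related receptor with its own ligand, ICOSL. PD-1, the product of Pdcd1, is an inhibitory receptor for PD-L1 (Cd274) and PD-L2 (Pdcd1lg2), while LAG-3 restrains responses to MHC class II, TIGIT competes for nectin-family ligands and TIM-3 (Havcr2) is an inhibitory receptor of T cells that dendritic cells and macrophages also carry. In the thymus, CD80 and CD86 on medullary epithelium and dendritic cells supply the costimulation on which regulatory T cells depend, and PD-1 and its ligands take part in thymocyte selection.

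The libraries came from SOD1-G93A mice, which carry a human SOD1 gene with a mutation of familial amyotrophic lateral sclerosis, and from wild-type (WT) mice, whose strain label also reads SOD1-G93A. Sorted thymus cells of day 30 and day 120 gave 46 libraries in 16 groups, from epithelium of the cortex (cTEC) and of the medulla (mTEC) and from T cells labelled Treg (regulatory) or CD4. Whole thymus and inguinal lymph node (iLN) were taken at day 120, and Treg cultures titled Tregdiff were labelled T0 (no activation), T2 and T20 (activation), with no unit of time and no mouse age. The 76 libraries form 26 groups, of which 24 hold 3 libraries and 2 (WT cTEC and WT CD4 at day 30) hold 2. The labels do not say that libraries of a group came from separate mice, so p-values measure the spread between these libraries, which may be technical, and the 2 days cannot be told apart from the 2 sets of libraries prepared for them.

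The genes lie in few places in the mm10 genome (GENCODE vM21 annotation). Cd274 (chromosome 19, 29367455 to 29388095, plus strand) and Pdcd1lg2 (29410919 to 29471161, plus strand) are neighbours 22.8 kb apart with 0 protein-coding genes between them. Cd28 (chromosome 1, 60716800 to 60773359) and Icos (60977927 to 61000320), both on the plus strand, are 204.6 kb apart with Ctla4 as the only protein-coding gene between them. Pdcd1 lies further along chromosome 1 (94038305 to 94052553, minus strand). Chromosome 16 holds Cd86 (36603869 to 36666081, minus strand), Cd80 (38455561 to 38496335, plus strand) and Tigit (43648867 to 43664146, minus strand), chromosome 6 holds Lag3 (124904361 to 124911705, minus strand) and chromosome 11 holds Havcr2 (46454935 to 46481255, plus strand). Antisense genes overlap Cd274 and Pdcd1lg2 and another annotated gene overlaps Icos, and since no use of strand in the counting is given in the sources used here, reads of these partners cannot be told apart from theirs.

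Promoter sequences, from 250 bases before to 50 bases after the start, were found for 6 of the 10 genes in RefSeq (GRCm38.p6): Cd274, Cd80, Havcr2, Pdcd1, Pdcd1lg2 and Tigit. The 4 shown are those of the 3 ligands with an entry and of Pdcd1, the receptor with the smallest p between Treg and CD4 libraries on both days. Each is printed 5′ to 3′ on the gene's strand, with motif matches in capitals. Cd274 is chr19:29367188-29367487 (plus strand), Pdcd1lg2 is chr19:29410669-29410968 (plus strand), Cd80 is chr16:38458683-38458982 (plus strand) and Pdcd1 is chr1:94052504-94052803 (minus strand). The Cd80 window lies inside the annotated gene, which begins at 38455561, so its start is not the gene start given above.
Cd274: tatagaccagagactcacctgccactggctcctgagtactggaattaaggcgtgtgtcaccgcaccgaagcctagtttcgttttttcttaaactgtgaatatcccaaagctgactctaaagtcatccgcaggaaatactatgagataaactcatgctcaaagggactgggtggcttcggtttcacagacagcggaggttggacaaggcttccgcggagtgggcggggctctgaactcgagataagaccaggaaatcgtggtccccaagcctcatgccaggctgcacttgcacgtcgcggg
Pdcd1lg2: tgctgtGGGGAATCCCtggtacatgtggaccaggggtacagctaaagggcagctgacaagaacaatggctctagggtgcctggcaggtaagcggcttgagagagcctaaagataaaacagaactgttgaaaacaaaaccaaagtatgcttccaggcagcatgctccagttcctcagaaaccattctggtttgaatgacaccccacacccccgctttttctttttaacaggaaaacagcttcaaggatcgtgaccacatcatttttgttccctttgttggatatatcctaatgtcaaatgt
Cd80: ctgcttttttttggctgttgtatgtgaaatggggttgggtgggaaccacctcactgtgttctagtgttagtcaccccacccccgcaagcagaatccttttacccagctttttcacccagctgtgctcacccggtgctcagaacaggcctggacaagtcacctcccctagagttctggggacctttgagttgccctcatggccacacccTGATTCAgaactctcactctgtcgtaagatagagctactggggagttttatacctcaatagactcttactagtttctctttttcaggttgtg
Pdcd1: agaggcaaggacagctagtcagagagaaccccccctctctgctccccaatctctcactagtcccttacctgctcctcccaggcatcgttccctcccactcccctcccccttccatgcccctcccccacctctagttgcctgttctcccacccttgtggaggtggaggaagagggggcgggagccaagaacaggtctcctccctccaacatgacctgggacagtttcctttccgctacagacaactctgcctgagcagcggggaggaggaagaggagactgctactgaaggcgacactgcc
Both strands were searched for AP-1 (TGANTCA), NFAT (TGGAAA), an interferon-stimulated response element (GAAANNGAAA), a GAS element (TTCNNNGAA) and the NF-kappaB consensus. AP-1 was found in Cd80 and, among those not printed, in Havcr2, and it occurs in 7.81% of 32851 promoters of this length. The NF-kappaB consensus, in 4.51% of them, was found in Pdcd1lg2. The motifs of NFAT (21.43%), the interferon element (3.44%) and GAS (8.3%) had 0 matches in the 6 promoters, and Cd274 and Pdcd1 held none of the 5. A match is only a match of letters in this window.

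Total counts ran from 15135 to 36919936 in mTEC libraries, 1269529 to 16776303 in cTEC, 1944589 to 34151147 in Treg, 837050 to 14047347 in CD4, 171619 to 19699330 in cultures and 63887 to 894958 in iLN, and 7 libraries held under 3e+05 counts. Sod1, read as a check of the genotype labels, was higher in every SOD1 than in every WT library in 12 of 13 pairs of groups, the exception being mTEC at day 30, where the SOD1 library with 15135 counts stood at 34.4 CPM against 31.2 to 35.1 CPM in WT. Libraries of 1 label held RNA of genes used as markers of other cells, and which cells it came from was not tested. The summed T cell markers reached 863 to 1360 CPM in cTEC at day 30 and 109 to 262 CPM at day 120. Those of mTEC reached 1726 to 8199.6 CPM in cTEC of day 120 against 4962 to 10535 CPM in mTEC. Foxp3 stood at 5.9 to 25.2 CPM in CD4 libraries and 33.5 to 265 CPM in Treg libraries. Unactivated cultures, labelled Treg, held 3.6 to 31.8 CPM of Foxp3, below every activated culture (39.5 to 325 CPM). In bulk libraries, fewer cells of a type and less RNA per cell cannot be told apart.

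Levels are CPM, counts scaled to a common library size with TMM factors, and CPM per kb of exon where genes are compared. In CD4 libraries, Pdcd1 led the receptors at a mean of 137 CPM per kb over both days, followed by Cd28 (71.8), Tigit (58.2) and Icos (38.2). In Treg libraries the order was Cd28 (39.7), Pdcd1 (30.2), Icos (28.7) and Tigit (12.9). Cd274 was the leading ligand of both epithelial populations, at 213 CPM per kb in cTEC and 57.6 in mTEC, where Cd80 (25.6) and Pdcd1lg2 (18.3) followed. Lag3 was near the bottom throughout the sorted cells, at 0.21 to 0.95 CPM per kb.

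**Figure D1:**
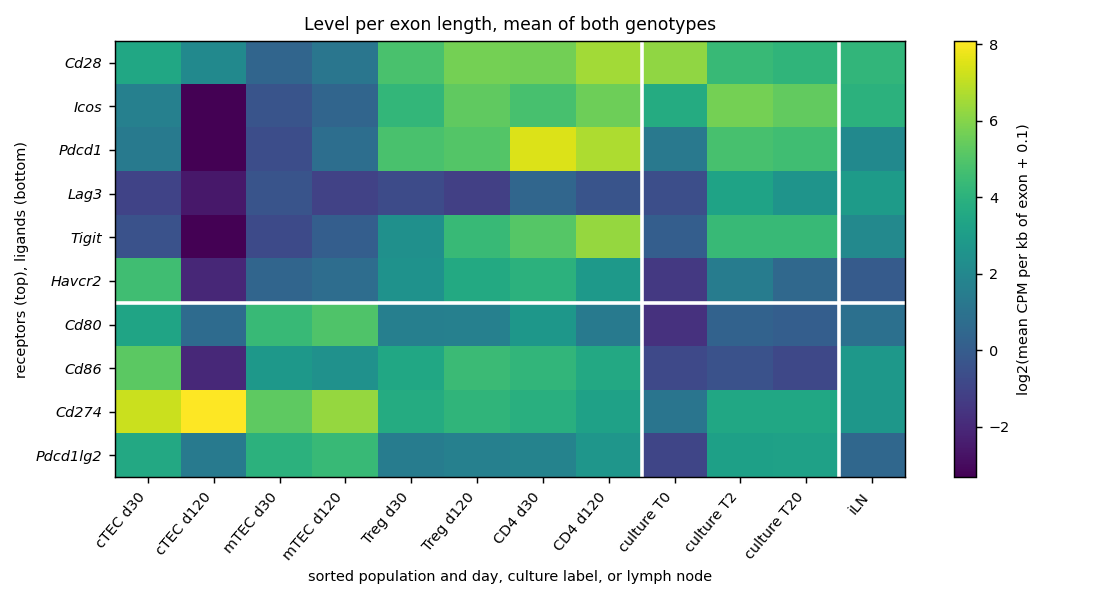
Mean level of each gene per kb of exon, as log2(CPM per kb + 0.1) by colour, in sorted populations by day, cultures by label and lymph node, averaged over libraries of both genotypes, with receptors above the white line and ligands below. Cd274 in cTEC libraries and Pdcd1 in CD4 libraries are the brightest fields, and Lag3 stays dark in all 8 sorted columns; sorted cells, cultures and node were scaled separately.

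Averaged over populations and days, epithelial and T cell libraries divided the genes into ligands and receptors, with Cd86 as the exception. Single sets departed from this. Of the sorted populations by day, cTEC of day 30 had the highest median of Havcr2 (45.0 CPM) and Cd86 (103 CPM). By contrast, cTEC of day 120 had the lowest median of Cd80 (1.55 CPM) and Pdcd1lg2 (3.02 CPM). Over all 46 sorted libraries, 3 of the 10 genes were higher in epithelium (Cd274, Cd80 and Pdcd1lg2) and 7 were lower (the 6 receptors and Cd86), where 45.7% of all 21733 genes tested were called (21.9% higher and 23.8% lower). Each call here is an adjusted p under 0.05 in edgeR's quasi-likelihood test (Benjamini-Hochberg over all genes tested), and each log2 difference carries its standard error. Cd274 was higher in epithelium by 2.97 ± 0.17 on the log2 scale (adjusted p = 2.5e-18), Pdcd1lg2 by 1.48 ± 0.39 (adjusted p = 0.0014) and Cd80 by 1.38 ± 0.34 (adjusted p = 0.00070). The log2 difference was -7.40 ± 0.41 for Pdcd1, -6.49 ± 0.41 for Icos, -6.42 ± 0.57 for Tigit, -3.89 ± 0.37 for Cd28, -2.83 ± 0.50 for Havcr2 and -2.49 ± 0.45 for Cd86, with adjusted p at most 1.4e-05. Lag3 had a difference of -1.40 ± 0.54 (adjusted p = 0.031), a call lost under 4 of 23 alternatives, median-of-ratios scaling among them (adjusted p up to 0.097). That scaling moved the median of all genes by 0.14 and the other 9 calls held. The median difference of the 10 genes was -2.66, against 0.22 over all genes tested.

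The wider families split in the same comparison. All 17 other receptors listed were lower in epithelium, among them Cd2 (log2 difference -5.46), an adhesion receptor, Cd27 (-4.63), a receptor of the TNF family, Cd160 (-6.61), an inhibitory receptor of cytotoxic cells, and Ctla4 (-5.90), the inhibitory counterpart of Cd28. Of 18 other ligands, 7 were higher, 4 were lower and 7 did not pass.

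**Figure D2:**
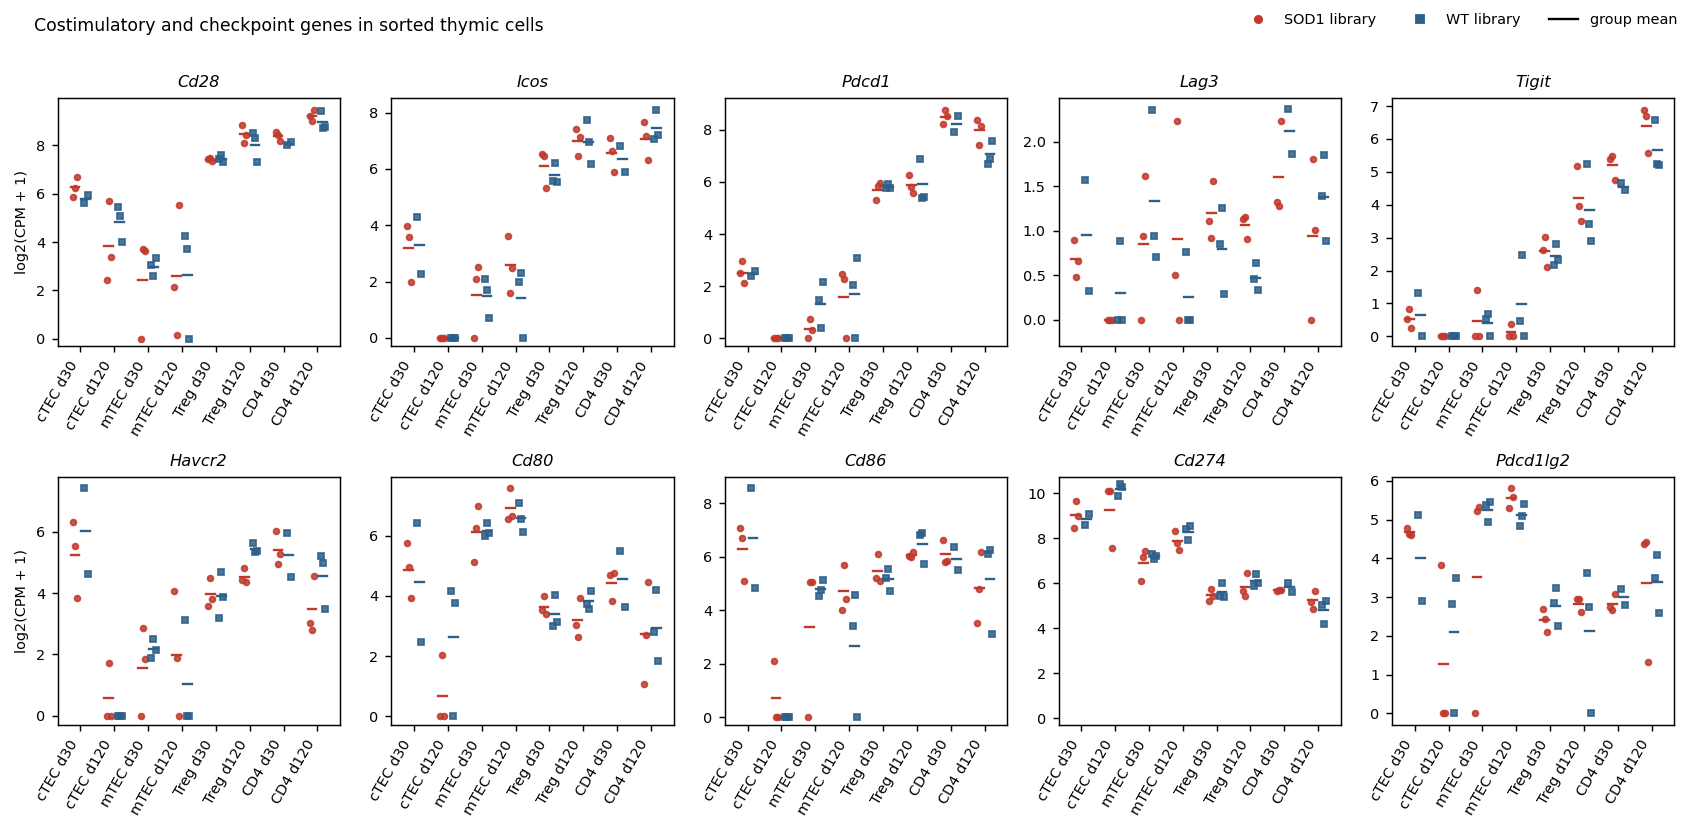
Level of each gene as log2(CPM + 1) in each sorted library, by population and day, with SOD1 libraries as circles, WT libraries as squares and a line at the mean of each group. Cd274 is highest in cTEC, Cd80 in mTEC and Pdcd1 in CD4 libraries, and Icos, Pdcd1 and Tigit lie at 0 in all 6 cTEC libraries of day 120; the scale of the vertical axis differs between panels.

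Among the ligands, Cd274 had its highest levels in cortical epithelium on both days. At day 30 it stood at 348, 805 and 505 CPM in SOD1 cTEC and 386 and 543 CPM in WT cTEC, against 68.8, 143 and 169.96 CPM in SOD1 mTEC (the first on 2 counts) and 157, 135 and 149 CPM in WT mTEC. Every cTEC library was above every mTEC library of that day. At day 120 it stood at 1099, 1089 and 192 CPM in SOD1 cTEC and 931, 1366 and 1233 CPM in WT cTEC, against 324, 223 and 176 CPM in SOD1 mTEC and 336, 246 and 376 CPM in WT mTEC. Of the cTEC libraries of day 120, 1 (SOD1 replicate 3, at 192 CPM) lay within the mTEC range and the other 5 lay above it. The log2 difference of mTEC from cTEC was -1.75 ± 0.37 at day 30 (adjusted p = 0.0027) and -1.76 ± 0.35 at day 120 (adjusted p = 0.00084), and both calls held under all 18 alternatives.

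Cd80 and Pdcd1lg2 showed the other order, with their highest levels in medullary epithelium. At day 120 Cd80 stood at 93.8, 191 and 101 CPM in SOD1 mTEC and 137, 93.8 and 69.2 CPM in WT mTEC, and at 0, 3.09 and 0 CPM in SOD1 cTEC and 16.9, 0 and 12.6 CPM in WT cTEC. Pdcd1lg2 stood at 38.6, 55.1 and 46.7 CPM in SOD1 mTEC and 27.7, 32.9 and 41.4 CPM in WT mTEC of that day, and at 13.3, 0 and 0 CPM in SOD1 cTEC and 6.04, 0 and 10.3 CPM in WT cTEC. The populations did not overlap for either gene. The log2 difference between mTEC and cTEC was 5.07 ± 0.83 for Cd80 (adjusted p = 0.00015) and 3.05 ± 0.86 for Pdcd1lg2 (adjusted p = 0.012), and both calls held under all 18 alternatives. At day 30 neither passed: Cd80 had a log2 difference of 1.13 ± 0.74 (adjusted p = 0.37) and Pdcd1lg2 of 0.71 ± 0.85 (adjusted p = 0.70). Cd80 then stood at 4.53 to 85.6 CPM in cTEC and 34.4 to 126 CPM in mTEC, the lowest mTEC value from the SOD1 library with 15135 counts.

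Counted over the genes, 6 were higher in mTEC and 1 was lower at day 120, and 0 were higher and 2 lower at day 30, of 9 tested on each day (Tigit did not pass the filter on low counts). Over all 20223 genes tested, 24.3% were called at day 120 (21% higher and 3.28% lower) and 19% at day 30 (15.9% higher and 3.1% lower). Besides Cd80 and Pdcd1lg2, the higher genes of day 120 were Cd86, Icos, Pdcd1 and Havcr2, each at or near 0 in cTEC of that day. Icos and Pdcd1 had 0 counts in the 6 cTEC libraries, and their mean mTEC levels were at least 15.02-fold and 11.5-fold above a floor of 3 counts over that group. The bound of Icos was 12.2 from pooled levels and 9.78 without SOD1 mTEC replicate 1 of day 120, and the call of Pdcd1 was lost with voom (adjusted p = 0.25). Cd86 had 6 counts over those libraries, all in SOD1 cTEC replicate 1, and a ratio of pooled levels of 57.7 (95% interval 26.5 to 157, counting error only). That ratio was 35.4 from mean levels and 21.9 without SOD1 mTEC replicate 2, the library with 36919936 counts. Havcr2 also had 6, all in SOD1 cTEC replicate 2, with a ratio of 8.59 (3.90 to 23.6) from pooled and 11.3 from mean levels, the latter 5.34 without SOD1 mTEC replicate 1, and its call was lost under 10 of 18 alternatives (adjusted p = 0.999942 without WT mTEC replicate 1 of day 120, and up to 0.57 under the other 9). Dendritic cell and macrophage markers summed to 99.3 to 1295 CPM in mTEC and 12.7 to 156 CPM in cTEC of day 120, and their part in these differences was not tested. Havcr2 was the other lower gene of day 30 (-3.98 ± 1.21, adjusted p = 0.024), lost under 8 of 18 (adjusted p up to 0.15). At day 30 median-of-ratios scaling moved the median of all genes by 0.16 and left 2 calls.

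Of the listed ligands outside the 10 genes, Icosl, the ligand of ICOS, was higher in mTEC on both days, by 2.66 ± 0.59 at day 30 (adjusted p = 0.0043) and 5.04 ± 0.61 at day 120 (adjusted p = 4.5e-06). Its level ran from 241 to 442 CPM in mTEC of day 30 and from 177 to 391 CPM at day 120, and from 10.6 to 127 and 0 to 14.5 CPM in cTEC. Lgals9, a galectin that binds TIM-3, was lower in mTEC on both days (-2.45 and -1.53), and Cd200, an inhibitory ligand, was lower at day 30 (-1.56). Tnfsf9 (4.51) and Cd70 (7.35), ligands of the TNF family for 4-1BB and CD27, were higher at day 120. In all, 4 of 18 other ligands were higher and 4 lower at day 30, and 5 were higher and 2 lower at day 120.

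With age, Cd86 and 3 receptors fell in cTEC to 0 or near 0. Cd86 stood at 134, 103 and 32.7 CPM in SOD1 and 375 and 27.3 CPM in WT cTEC at day 30, and at 3.33, 0 and 0 CPM in SOD1 and 0, 0 and 0 CPM in WT cTEC at day 120. Havcr2 stood at 78.1, 45.0 and 13.4 CPM in SOD1 and 169 and 23.4 CPM in WT at day 30, and at 0, 2.32 and 0 CPM in SOD1 and 0, 0 and 0 CPM in WT at day 120. The days did not overlap for either gene. In all, 4 of 8 genes tested fell (Cd86, Havcr2, Icos and Pdcd1) and 0 rose, against 4.63% called over 14620 genes (1.61% higher and 3.02% lower). Pooled levels were 196 times higher at day 30 for Cd86 (95% interval 90.1 to 535, counting error only, adjusted p = 0.0066) and 101 times for Havcr2 (46.4 to 276, adjusted p = 0.0094). From mean levels the ratios were 242 and 170.008, and 134 and 103 without WT replicate 2 of day 30. Icos was at least 37.2-fold and Pdcd1 at least 17.4-fold lower at day 120, when both had 0 counts (adjusted p = 0.026 and 0.027).

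Leukocyte markers moved with these genes. The 13 markers of dendritic cells and macrophages summed to 226 to 1441 CPM in cTEC of day 30 and 12.7 to 156 CPM at day 120, when 2 of the 13 were at 0 in all 6 libraries. The 8 T cell markers summed to 863 to 1360 CPM and 109 to 262 CPM. Of the 5 libraries of day 30, WT replicate 2 had the highest dendritic cell and macrophage sum (1441 CPM) with 375 CPM of Cd86, and WT replicate 3 the lowest (226 CPM) with 27.3 CPM of Cd86. The part of these cells in the change was not tested. Without WT replicate 2 of day 30 the count fell from 4 to 0, with adjusted p from 0.057 (Cd86) to 0.16 (Pdcd1), and it was 2 without SOD1 replicate 1, 2 or 3 or WT replicate 3 of day 30 or WT replicate 1 of day 120. Of the other genes of the families, 3 receptors and 1 ligand fell, Cd48, a ligand of CD2 on leukocytes, among them (-8.74).

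**Figure D3:**
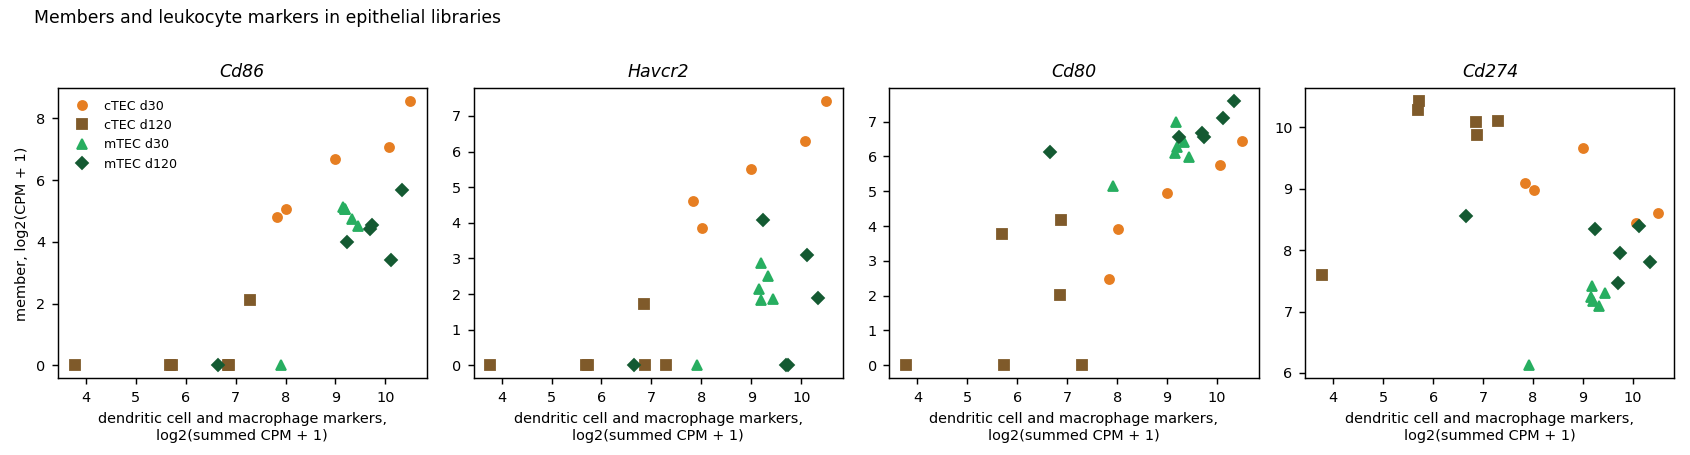
Levels of Cd86, Havcr2, Cd80 and Cd274 as log2(CPM + 1), vertical axes, against the summed CPM of 13 dendritic cell and macrophage markers as log2(sum + 1), horizontal axes, with 1 point per epithelial library. The cTEC libraries of day 30 (circles) have Cd86 and the marker sum in the same order, those of day 120 (squares) have sums of 12.7 to 156 CPM, a range that also holds 1 mTEC library of day 120 (WT replicate 3, at 99.3 CPM), and Cd274 is highest in 5 of the 6 latter libraries.

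Cd274 itself had a median of 505 CPM in cTEC of day 30 (348 to 805) and 1094 CPM at day 120 (192 to 1366). The log2 change of 1.15 ± 0.41 did not pass (adjusted p = 0.14), although it did without the SOD1 replicate 3 of day 120 and in limma with voom. In mTEC, Cd274 was the only 1 of 9 genes that passed with age, where 3.16% of 18919 genes were called (2.09% higher and 1.06% lower). Every mTEC library of day 120 (176 to 376 CPM) was above every one of day 30 (68.8 to 169.96 CPM). It rose by 0.95 ± 0.23 (adjusted p = 0.038), and the call was lost in 7 of 12 fits without 1 library (adjusted p up to 0.13), those without SOD1 replicate 2 or 3 or WT replicate 1, 2 or 3 of day 30 or SOD1 replicate 1 or 2 of day 120. Epithelial markers moved with it: those of thymic epithelium summed to 3510 to 9114 CPM at day 30 and 12195 to 19800.4 CPM at day 120, and those of mTEC to 1514 to 4479 and 4962 to 10535 CPM, and their part was not tested. Cd80 in mTEC had a median of 72.0 CPM at day 30 (34.4 to 126, the lowest from the SOD1 library with 15135 counts) and 97.6 CPM at day 120 (69.2 to 191). Its log2 change was 0.49 ± 0.29 (adjusted p = 0.44), and that of Pdcd1lg2 was 0.18 ± 0.33 (adjusted p = 0.87).

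Among the receptors, Treg and CD4 libraries differed mainly in Pdcd1, Tigit and Cd28, which were lower in the libraries labelled Treg on both days. At day 30 Pdcd1 stood at 294, 435 and 371 CPM in SOD1 and 240.4 and 367 CPM in WT CD4 libraries, against 38.7, 56.3 and 61.0 CPM in SOD1 and 52.8, 58.9 and 53.7 CPM in WT Treg libraries. At day 120 it stood at 327, 171 and 284 CPM in SOD1 and 103, 117 and 191 CPM in WT CD4, against 76.8, 54.6 and 47.1 CPM in SOD1 and 118, 40.4 and 42.4 CPM in WT Treg. The populations were apart at day 30, and at day 120 the highest Treg library (WT replicate 1) reached into the CD4 range. The log2 difference of Treg from CD4 was -2.66 ± 0.28 at day 30 (adjusted p = 2.8e-06) and -1.90 ± 0.26 at day 120 (adjusted p = 3.5e-05).

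Tigit had differences of -2.59 ± 0.41 (adjusted p = 0.00033) and -2.20 ± 0.38 (adjusted p = 0.00040), and Cd28 of -0.80 ± 0.18 (adjusted p = 0.011) and -1.09 ± 0.18 (adjusted p = 0.00019), in the order of the days. Tigit ran from 20.7 to 43.9 CPM in CD4 and 3.30 to 7.10 CPM in Treg at day 30, with no overlap. Havcr2 was lower at day 30 (-1.47 ± 0.39, adjusted p = 0.029), a call lost under 8 of 17 alternatives, and Icos differed by -0.52 ± 0.31 and -0.57 ± 0.29 (adjusted p = 0.50 and 0.18). Cd28 at day 30 was lost without the WT CD4 replicate 3 (adjusted p = 0.099). In all, 4 of 10 genes were lower and 0 higher in Treg at day 30, against 4.67% of 15725 genes called (2.17% higher and 2.5% lower), and 3 were lower and 0 higher at day 120, against 17.6% (10.9% higher and 6.72% lower). The gene beside Cd28 and Icos, Ctla4, was higher in Treg on both days (1.64 and 1.25), as was Tnfrsf4, encoding the costimulatory receptor OX40 (1.91 and 1.75), while Cd160 was lower (-4.40 and -3.25). Of 17 other receptors, 2 were higher and 6 lower at day 30 and 2 higher and 5 lower at day 120. Cd8a stood at 121 to 445 CPM in CD4 and 105 to 192 CPM in Treg libraries. The summed double-positive thymocyte markers had the other order. At day 30 they reached 883 to 1605 CPM in CD4 and 1833 to 2591 CPM in Treg. At day 120 they reached 457 to 792 and 684 to 1223 CPM. Dendritic cell and macrophage markers summed to 542 to 1994 CPM in CD4 and 371 to 747 CPM in Treg at day 30. At day 120 these summed to 238 to 1075 and 403 to 596 CPM. The part of any of these markers' cells in the differences was not tested.

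Cd28 and Tigit rose with age in both T cell populations. In Treg, Cd28 stood at 169.5, 173 and 161 CPM in SOD1 and 171, 191 and 158 CPM in WT at day 30, and at 455, 274 and 339 CPM in SOD1 and 364, 308 and 155 CPM in WT at day 120. Tigit stood at 5.14, 7.10 and 3.30 CPM in SOD1 and 3.47, 6.04 and 4.01 CPM in WT at day 30, and at 35.5, 14.6 and 10.4 CPM in SOD1 and 37.0, 9.65 and 6.39 CPM in WT at day 120. For both genes 5 of the 6 older libraries were above all younger ones, and the remaining one, WT replicate 3, was below all of them for Cd28 and within their range for Tigit. The log2 change was 0.84 ± 0.16 for Cd28 (adjusted p = 0.0021), 1.91 ± 0.43 for Tigit (adjusted p = 0.0051), 1.05 ± 0.27 for Icos (adjusted p = 0.010), 1.02 ± 0.26 for Havcr2 (adjusted p = 0.010) and 0.94 ± 0.24 for Cd86 (adjusted p = 0.0094). These 5 of 9 genes rose and 0 fell, where 29.9% of 14824 genes were called (16.1% higher and 13.8% lower), and all 5 calls held under the 17 alternatives.

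Pdcd1 in Treg changed by 0.19 ± 0.22 (adjusted p = 0.56) and Cd274 by 0.48 ± 0.24 (adjusted p = 0.15). B cell markers summed to 35.1 to 83.5 CPM in Treg libraries of day 30 and 119 to 372 CPM of day 120, dendritic cell and macrophage markers to 371 to 747 and 403 to 596 CPM, and double-positive thymocyte markers to 1833 to 2591 and 684 to 1223 CPM. Their part in the changes of Cd86 and the receptors was not tested. Among the other genes, Tnfrsf4 (1.55), Tnfrsf25 (1.97) and Cd27 (0.89), costimulatory receptors of the TNF family, rose in Treg, Slamf6 fell (-1.23), and of 17 receptors 6 rose and 2 fell.

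In CD4 libraries, Cd28 rose by 1.16 ± 0.23 (adjusted p = 0.0091) and Tigit by 1.54 ± 0.35 (adjusted p = 0.017), and these were 2 of 9 genes tested, against 10.6% of 12479 (4.66% higher and 5.92% lower). Cd28 ran from 254 to 374 CPM at day 30 and 418 to 703 CPM at day 120, with no overlap. Double-positive thymocyte markers summed to 883 to 1605 CPM in CD4 libraries of day 30 and 457 to 792 CPM of day 120, and activated T cell markers to 852 to 1217 and 379 to 719 CPM, and their part was not tested. Icos, at 1.12 ± 0.34, missed the threshold (adjusted p = 0.05001) and passed under 7 of 16 alternatives. Among the others, Tnfrsf4 (1.73) and Ctla4 (1.13) rose in CD4 as well. Of 17 other receptors these 2 rose and 4 fell, beside the count of 2 among the 9 genes tested. Without WT CD4 replicate 2 or replicate 3 of day 30 the count fell to 0, and without SOD1 replicate 3 of day 30 it was 1. The difference between Treg and CD4 in the change with age passed for 0 of the 10 genes in edgeR (1.03% of all genes called). An unadjusted p under 0.05 was reached by 3 of the 10, and by 2277 of all 15725 genes tested. Havcr2 was nearest to the threshold (difference of 2.02 ± 0.54, adjusted p = 0.069). In Havcr2 the medians were 13.3 and 33.1 CPM in Treg and 38.0 and 16.4 CPM in CD4 at day 30 and day 120. DESeq2, voom, a shared dispersion and no filter on low counts each called that difference of Havcr2. Dendritic cell and macrophage markers summed to 542 to 1994 CPM in CD4 libraries of day 30 and 238 to 1075 CPM of day 120. In Treg they summed to 371 to 747 and 403 to 596 CPM, and their part was not tested.

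In the cultures, 7 of the 8 genes tested were higher at T2 than at T0 and Cd28 was lower, and the same counts held at T20. Over all 11787 genes tested, 58.1% were called at T2 (23.8% higher and 34.3% lower) and 58.2% at T20 (24.1% higher and 34.1% lower), and both comparisons share the T0 libraries. Cd28 stood at 465, 521 and 491 CPM in SOD1 and 391.7, 391.6 and 389 CPM in WT at T0, at 144, 121 and 130.4 CPM in SOD1 and 168, 84.5 and 106 CPM in WT at T2, and at 109, 84.1 and 108 CPM in SOD1 and 189, 54.5 and 105 CPM in WT at T20. All unactivated libraries were above all activated ones. It fell by 1.83 ± 0.25 at T2 (adjusted p = 7.8e-06) and by 2.0 ± 0.25 at T20 (adjusted p = 3.6e-06).

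Icos and Pdcd1 went the other way. Icos stood at 64.4, 46.5 and 40.3 CPM in SOD1 and 32.05, 40.5 and 44.2 CPM in WT at T0, and at 239, 222 and 117 CPM in SOD1 and 107, 242 and 132 CPM in WT at T2. Pdcd1 stood at 10.7, 4.07 and 1.22 CPM in SOD1 and 0, 7.13 and 3.92 CPM in WT at T0, and at 50.8, 49.1 and 39.1 CPM in SOD1 and 61.8, 44.7 and 65.9 CPM in WT at T2. Neither gene overlapped between T0 and T2. Icos rose by 2.01 ± 0.25 (adjusted p = 2.4e-06) and Pdcd1 by 3.36 ± 0.38 (adjusted p = 9.3e-07), and at T20 by 1.65 ± 0.25 and 3.23 ± 0.38.

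The other inhibitory receptors started near 0. Lag3 had a median of 0.887 CPM at T0 (0 to 3.58), 20.6 CPM at T2 (7.9988 to 31.2) and 12.4 CPM at T20 (4.67 to 27.2), and rose by 3.88 ± 0.65 at T2 (adjusted p = 6.4e-05). Tigit had a median of 0.611 CPM at T0 (0 to 2.33), 16.4 CPM at T2 (0 to 40.5) and 17.3 CPM at T20 (7.27 to 32.7), and rose by 4.07 ± 0.66 (adjusted p = 4.7e-05). Only WT replicate 1 of T2, with 0 CPM of Tigit, lay within the T0 range. Havcr2 had 3 counts over the 6 T0 libraries, and its pooled level was 20.1 times higher at T2 (95% interval 6.70 to 98.8, counting error only) and 15.9 times at T20 (5.38 to 78.0). From mean levels the ratios were 9.87 and 4.95, and the pooled ones were 43.4 and 34.4 without WT T0 replicate 2, which held 2 of the 3 counts. The log2 change at T20 was 4.32, and without the SOD1 T20 replicate 1, the only SOD1 library of T20 above 0, it was 1.40 and did not pass (adjusted p = 0.999941).

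Both PD-1 ligands rose in these T cell cultures. Cd274 stood at 8.95, 5.82 and 6.72 CPM in SOD1 and 3.56, 10.2 and 8.83 CPM in WT at T0, at 75.2, 35.6 and 21.7 CPM in SOD1 and 44.9, 26.9 and 36.1 CPM in WT at T2, and at 33.8 to 50.8 CPM over both genotypes at T20. Pdcd1lg2 had medians of 0.291, 17.9 and 20.2 CPM at T0, T2 and T20. The changes at T2 were 2.37 ± 0.30 for Cd274 (adjusted p = 3.0e-06) and 4.16 ± 0.61 for Pdcd1lg2 (adjusted p = 1.8e-05). Cd80 and Cd86 did not pass the filter on low counts, with 0 to 13.04 CPM of Cd80 and 0 to 6.11 CPM of Cd86 in the 18 libraries. Dendritic cell and macrophage markers summed to 17 to 28.5 CPM at T0 and 17.3 to 25.6 CPM at T2, and at T20 to 88.8 CPM in SOD1 replicate 2 and 16.3 to 29.7 CPM in the other 5.

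**Figure D4:**
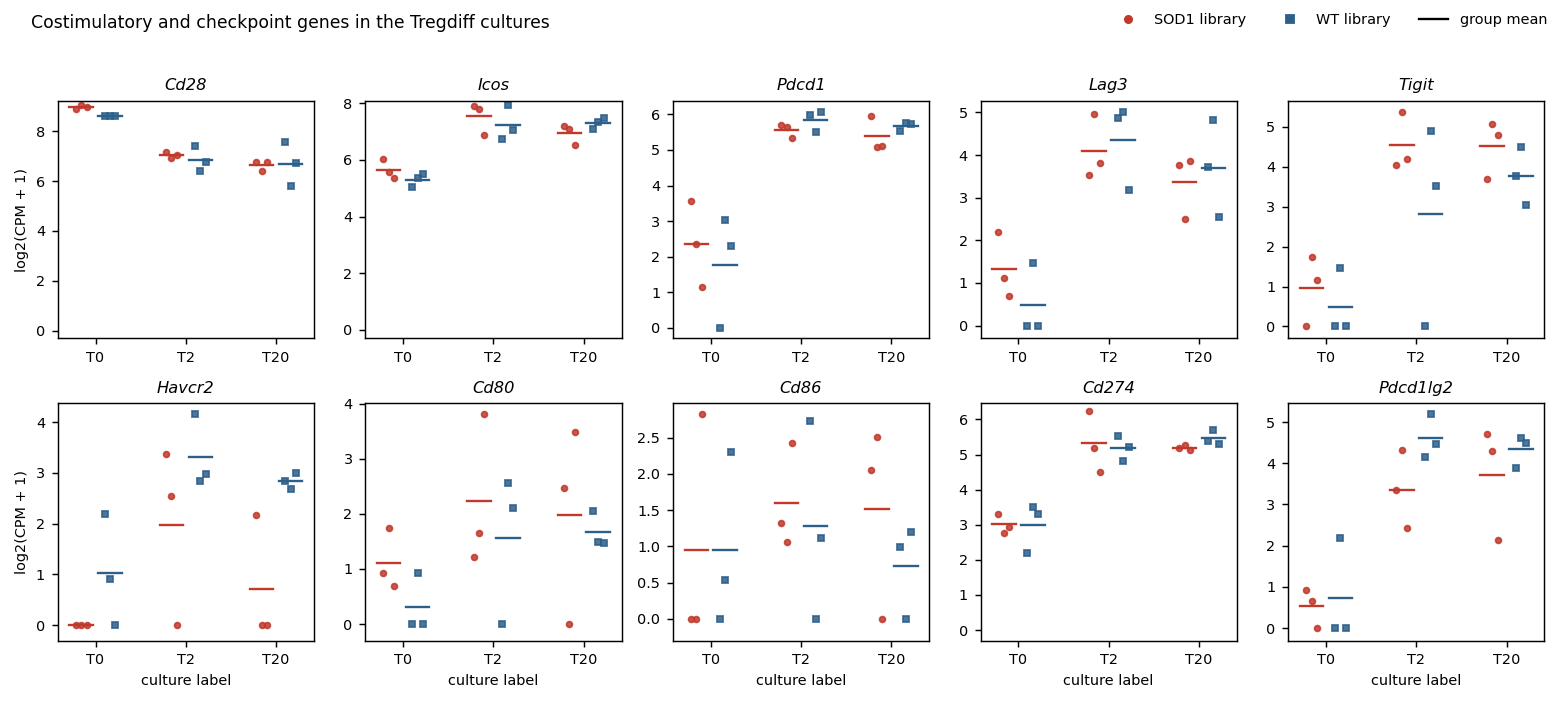
Level of each gene as log2(CPM + 1), vertical axes, in the 18 culture libraries by culture label, with SOD1 libraries as circles, WT libraries as squares and a line at the mean of each group. Cd28 falls from T0 to T2 while Icos, Pdcd1, Lag3, Tigit, Havcr2, Cd274 and Pdcd1lg2 rise, and T2 and T20 overlap in every panel.

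Between T20 and T2, 0 of 8 genes were called by edgeR, and 0 of 11787 genes in all (0%), with 0 of the 8 and 457 of all genes at an unadjusted p under 0.05. The same 0 of 8 was found with DESeq2, limma with voom and a shared dispersion. The largest difference was that of Havcr2 (-0.87 ± 0.60), and Icos differed by -0.36 ± 0.23. Other genes of the families moved with activation: Tnfrsf9 (4-1BB, 5.04) and Tnfrsf4 (OX40, 4.20) rose at T2, as did Tnfsf4, the ligand of OX40 (5.06), and Lgals3, a galectin (5.27), while Cd27 (-3.52) and Cd40lg, the ligand of CD40 on helper T cells (-3.18), fell. Of 17 other receptors, 6 rose and 5 fell at T2, and of 11 other ligands tested 6 rose and 3 fell. The Treg markers, Foxp3 among them, summed to 75.6 to 432 CPM at T0 and 1555 to 4350 CPM at T2, and WT replicate 2 of T0 stood apart with 262 CPM of Il2ra against 0.98 to 39.6 CPM in the other 5. Every T2 call held without that library.

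Genotype was compared in 13 pairs of groups, and 0 of the 10 genes were called in any by edgeR or, in whole thymus, by limma. Differences could be missed, large ones among them. In simulated data 2 of 100 2-fold and 51 of 100 4-fold changes were called at T20. In Treg of day 120 these were 14 of 100 and 68 of 100. Genes with few counts were not among those changed in the simulation. Over all genes tested, 0.0679% were called in cultures at T0 (0.0509% higher and 0.017% lower in SOD1), 0.0933% at T2 (0.0594% and 0.0339%) and 0.0933% at T20 (0.0848% and 0.00848%). The share was 0.00684% in cTEC, 0.00529% in mTEC, 0.0135% in Treg and 0.00801% in CD4 on either day, 0.0574% in iLN and 0.0831% in whole thymus. DESeq2, limma with voom and a shared dispersion also called 0 of the genes in all 12 pairs with counts. An unadjusted p under 0.05 was reached by 3 values, those of Havcr2 in T0 cultures, Havcr2 in Treg at day 120 and Pdcd1 in CD4 at day 120. Of all genes tested, 629 of 11787 reached it in T0 cultures. It was reached by 999 of 14824 in Treg and 776 of 12479 in CD4 of day 120. In T0 cultures the SOD1 libraries were all at 0 for Havcr2 and WT at 3.56, 0.891 and 0 CPM. Havcr2 in Treg of day 120 stood at 20.3, 27.2 and 19.7 CPM in SOD1 and 48.6, 39.0 and 40.6 CPM in WT, without overlap (log2 difference -1.07 ± 0.36, unadjusted p = 0.011, adjusted p = 0.67). Groups did not overlap for 8.36% of all genes in that comparison. Pdcd1 in CD4 of day 120 stood at 327, 171 and 284 CPM in SOD1 and 103, 117 and 191 CPM in WT (0.87 ± 0.40, adjusted p = 0.79).

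Some other tested genes had no overlap on the scaling of each set. In T0 cultures this was Cd28, higher in SOD1 (13% of all genes). In T20 cultures these were Havcr2 and Cd274, lower in SOD1 (7.75%). There Havcr2 stood at 0 CPM in SOD1 replicates 2 and 3, which held 214318 and 285528 counts in all. It stood at 3.49 CPM in SOD1 replicate 1 and 5.45 to 6.95 CPM in WT. In CD4 of day 30 this was Tigit, higher in SOD1 (13.9%). Cd28 also did not overlap there on the scaling over all sorted libraries. Lag3 in Treg of day 120 did not pass the filter on low counts and stood at 1.18, 1.22 and 0.868 CPM in SOD1 and 0.368, 0.556 and 0.255 CPM in WT, also without overlap. In whole thymus, deposited as TPM, Cd28 stood at 135, 150.1 and 111 TPM in SOD1 and 134, 149 and 125 TPM in WT. The log2 differences of the 10 genes there, on the log2(TPM + 1) scale, ran from -0.33 ± 0.26 (Tigit) to 0.33 ± 0.30 (Pdcd1lg2), with adjusted p = 0.998846 for each. In iLN, 2 of the 10 genes passed the filter on low counts, Cd28 (0.10 ± 0.35) and Icos (0.60 ± 0.42), with adjusted p = 0.997 and 0.97. The genotype difference of the change with age or culture was called for 0 of the genes in any set. An unadjusted p under 0.05 was reached by Havcr2 and Cd86 in Treg, where 540 of all 14824 genes reached it.

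**Figure D5:**
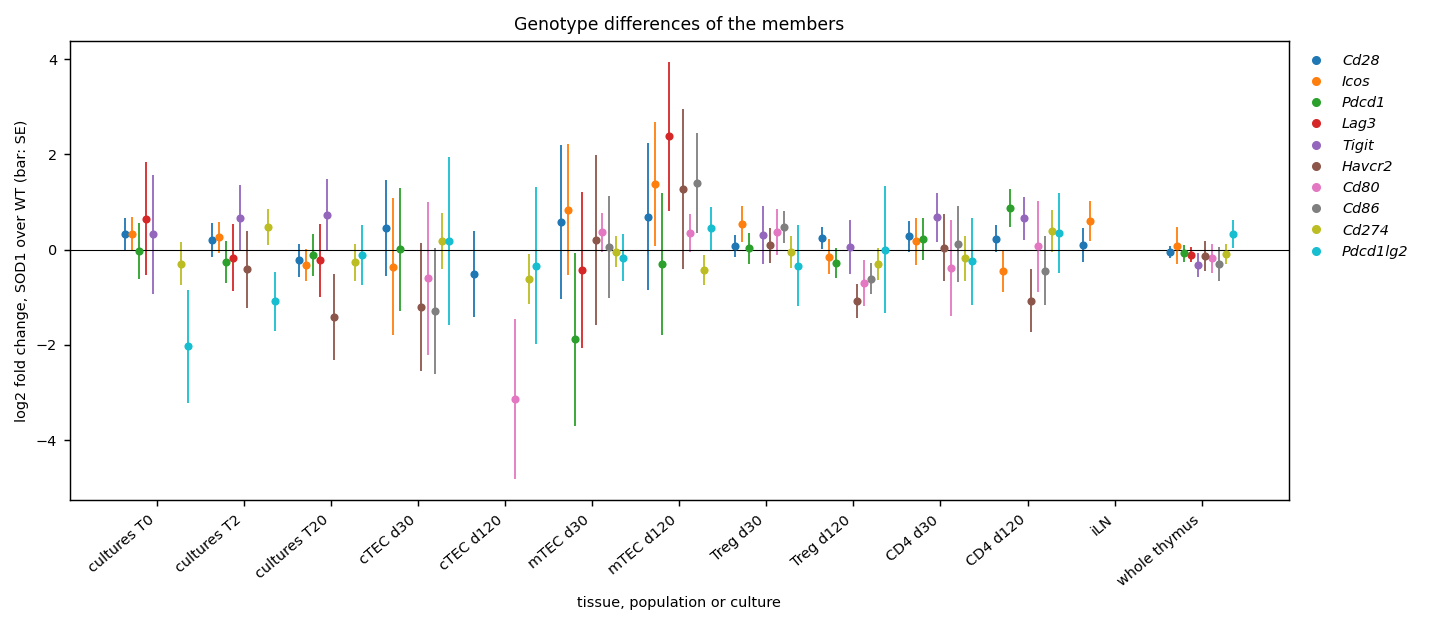
Log2 fold change of SOD1 over WT with its standard error, vertical axis, for each gene by colour in 13 comparisons of genotype, leaving out genes that did not pass the filter or had a group at 0. Havcr2 in Treg of day 120 (-1.07 ± 0.36) and Pdcd1 in CD4 of day 120 (0.87 ± 0.40) are the drawn points with an unadjusted p under 0.05, and 0 points passed the adjusted threshold.

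Across the 16 sorted groups, the genes whose mean log2(CPM + 1) followed 9 of the members most closely were found among 11726 genes, as a description with shared libraries behind all points. Cd80 was followed by Icosl (Pearson r = 0.972) and Icos by Jakmip1 (0.996). Havcr2 was followed by Spi1, the transcription factor PU.1 of myeloid cells (0.982). Pdcd1 was followed by Nkg7 (0.989), Tigit by Ms4a4b (0.983), Cd274 by Kazald1 (0.983), Cd86 by Lsp1 (0.953), Pdcd1lg2 by N4bp2l1 (0.913) and Lag3 by Cd244a (0.857). Between the members, Icos and Pdcd1 (0.95), Pdcd1 and Tigit (0.94) and Havcr2 and Cd86 (0.92) were the most alike of 45 pairs.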

How the data were processed

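Bulk RNA was sequenced after the SMARTseq v4 low input kit, per the labels' protocols. The authors deposited counts per gene for sorted cells, cultures and iLN, and TPM (which keep no depth) for whole thymus. Per the submitters' processing notes, mm10 and DESeq2 were used in an unstated role. Which aligner and counter made the counts, and whether strand was used, is not given in the sources used here. Symbols and positions came from GENCODE vM21, which held 55094 of 55487 gene IDs.

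Counts were tested with edgeR 4.0.16 in R 4.3.3 (TMM, filterByExpr by group, estimateDisp, glmQLFit with the legacy option and trended dispersion, glmQLFTest). Each population, the cultures and iLN were fitted alone, both epithelial and both T cell populations together for comparisons between them, and all 46 sorted libraries for epithelium against T cells and for the CPM shown. Changes with age or culture are means over both genotypes. The design had allowed for counts or TPM in whole thymus, and for the TPM limma 3.58.1 with a trend was run on log2(TPM + 1) at a mean of at least 1 TPM, which understates changes of low genes. P-values were adjusted over all genes tested. Standard errors in edgeR fits are the absolute log2 change divided by the square root of the F statistic. Ratios with few counts carry exact 95% intervals of pooled counts. Alternatives were DESeq2 1.42.0, limma with voom, median-of-ratios scaling, a shared dispersion, no filter, leaving out libraries under 3e+05 counts, fitting only the 2 groups compared, other pseudocounts for TPM (0.1 and 5), a replicate block and leaving out each library. For ratios with few counts, mean in place of pooled levels (or the reverse) and leaving out each library were added after seeing the data. Scripts were tested on simulated data with 100 genes changed 4-fold and 100 changed 2-fold. Called were 87 and 28 of these for T2 versus T0, and 51 and 2 for SOD1 versus WT at T20. For SOD1 versus WT in Treg of day 120 they were 68 and 14, and for cTEC with age 0 and 0. A gene that was not called may thus still differ.

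The 10 genes, the lists and the tests were chosen with earlier results of these data known. All 10 are named in each comparison, and of 17 other receptors and 18 other ligands at most 6 called genes per comparison, those with the smallest p. Cd244 was looked up as Cd244a. The gene most like Cd28 is not reported here.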

Additional observations from a re-analysis of the deposited data

Results flagged for a closer look

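The change with age differed between mTEC and cTEC for 4 genes, in a test of that difference itself (edgeR, adjusted over all genes, where 0.737% of 20223 genes were called). The adjusted p was 0.011 for Cd86, 0.027 for Icos, 0.041 for Havcr2 and 0.044 for Pdcd1. In each, cTEC went from a measurable level at day 30 to 0 or near 0 at day 120, while the change in mTEC did not pass its own test. The mTEC log2 changes were 1.78 for Pdcd1, -0.66 for Cd86, 0.44 for Icos and 0.05 for Havcr2. Cd86 had medians of 103 and 0 CPM in cTEC and 29.0 and 17.7 CPM in mTEC. The Icos and Pdcd1 differences rest on 0 counts in cTEC of day 120, so no fold is given. The dendritic cell and macrophage markers summed to 226 to 1441 CPM in cTEC of day 30 and 12.7 to 156 CPM at day 120. In mTEC they summed to 241 to 695 CPM (the lowest from the SOD1 library with 15135 counts) and 99.3 to 1295 CPM. Their part in the difference was not tested. The calls were lost under 22 of 29 alternatives for Pdcd1 (adjusted p up to 0.13), 18 of 30 for Havcr2 (up to 0.999913), 10 of 30 for Icos (up to 0.16) and 3 of 30 for Cd86 (up to 0.082). All 4 were lost with the replicate block and without WT cTEC replicate 2 of day 30.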

How the results depend on the processing

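Of 1136 values of called genes under alternatives, 1022 stayed past the threshold, 114 did not and 0 changed sign. Of 554 counts of called genes, 501 stayed within 1.5 times. In mTEC against cTEC at day 30 (2 called), voom gave 8, no filter 4, a shared dispersion 5 and the replicate block 1. For the epithelial difference of the day change (4 called), voom gave 1, leaving out libraries under 3e+05 counts 2 and the replicate block 0, and median-of-ratios scaling, which moved the median of all genes by -0.22, gave 3. In Treg against CD4 at day 30 (4 called), voom gave 7. For the T cell difference of the day change (0 called), DESeq2, voom, no filter and a shared dispersion each gave 1. The cause was not tested.

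Leaving out 1 library gave 0 to 5 in cTEC with age (4 called), 0 to 1 in mTEC (1 called), 0 to 3 in CD4 (2 called), 1 to 2 in mTEC against cTEC at day 30 (2 called), 0 to 5 for the epithelial difference of the day change (4 called; 0 without WT cTEC replicate 2 of day 30), 3 to 5 in Treg against CD4 at day 120 (3 called) and 0 to 1 for the T cell difference of the day change (0 called). In epithelium against T cells, only the library with the lowest total of each group was left out, in 16 fits. Leaving out a library of WT cTEC or WT CD4 at day 30 leaves 1 in that group, which is assumed to vary like the other groups. Of 225 values not called, 19 passed under at least 1 alternative.

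Deviations of libraries of 1 number correlated at over 0.1 in 5 of 18 culture pairs, 0 of 11 epithelial pairs and 9 of 11 T cell pairs (T cells: lowest 0.063, median 0.13). T cell pairs of unlike number had a median of -0.0042. The labels do not say what the number marks, although the column headers of day 120 repeat the same numbers in every sorted population. Since not every pair passed, the numbers were not taken as pairing, but shared mice are not excluded. The main Treg against CD4 tests make no allowance for them, and the replicate block does. The replicate block changed no count by over 1.5 times beyond those given. No paired fit was made for the change with age within a population, since the block holds the day. Depth limits the genes near 0: in cTEC of day 120, the floor of 3 counts over the 6 libraries is 0.276 CPM.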

Other observations

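Lag3 was lower than Pdcd1 both in whole thymus and in the sorted CD4 cells. In whole thymus it stood at 13.8, 16.6 and 13.4 TPM in SOD1 and 15.5, 17.9 and 13.9 TPM in WT, where Pdcd1 stood at 18.97 to 30.8 TPM. In the sorted CD4 libraries Lag3 ran from 0 to 4.18 CPM while Pdcd1 ran from 103 to 435 CPM. The 2 tables were scaled separately, so only the order within each can be read. In iLN, Lag3 reached 81.5 CPM in WT replicate 2, the library with 63887 counts, where it rests on 5 counts, and 0 to 9.68 CPM in the other 5.

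Among the listed ligands of epithelium, Tnfsf9 (log2 change 1.73, adjusted p = 0.0038) and Nectin2 (1.39, adjusted p = 0.013), a ligand of TIGIT and CD226, rose in mTEC from day 30 to day 120 in edgeR's test.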
